A study of Mus musculus with 7 samples.

Results

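The 9 transcripts that encode the activation limb of rod phototransduction were followed in whole retina, from the rod G protein transducin (*Gnat1*, *Gnb1*, *Gngt1*) through its effector phosphodiesterase 6 or PDE6 (*Pde6a*, *Pde6b*, *Pde6g*) to the cGMP-gated cation channel (*Cnga1*, *Cngb1*) and the sodium/calcium-potassium exchanger of the rod (*Slc24a1*). They were picked by gene symbol, and all 9 were found among the 52550 genes of the count table and passed the filter on low counts. The question was how far each step of the cascade, and the balance between its subunits, differed between WT retina and the retina of mice that model SCA7, an inherited ataxia (spinocerebellar ataxia, type 7) with retinal degeneration. SCA7 mice were homozygous knock-in mice (SCA7 140Q/140Q), which carry an expanded CAG repeat in exon 1 of both copies of *Atxn7*, so that the polyglutamine protein is made from the gene's own promoter in all cells that use it. All mice were on a C57BL/6J background and were 12.5 weeks old, and 4 WT and 3 SCA7 mice gave 1 library each from both retinas of an animal, with 56497675 to 96635832 counts per library.

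In a rod, light turns the visual pigment into a catalyst that loads GTP onto the transducin alpha subunit, which leaves its beta and gamma partners and relieves the gamma inhibitory subunits of PDE6. The catalytic alpha and beta subunits of PDE6 then break down cGMP, the cyclic nucleotide channel closes, and the exchanger goes on removing calcium, which starts recovery. Because the subunits work in fixed assemblies in the outer segment, the amounts of their transcripts relative to each other are of interest beside their levels. In whole retina, fewer rods and less RNA per rod cannot be told apart.

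The promoter sequences of some members are shown because all members fell together. Capitals mark exact matches to short letter patterns of photoreceptor transcription factors, and whether these places are bound was not tested. CRX and NRL are transcription factors that drive rod genes. The RefSeq promoter table for GRCm38.p6, which gives 250 bases before to 50 after each gene's start, was read for *Gnb1*, *Gngt1*, *Pde6b*, *Cnga1*, *Cngb1* and *Slc24a1*, and the promoters of *Gnat1*, *Pde6a* and *Pde6g* were not used here. The CRX core TAATCC (on the other strand, GGATTA) was found in *Gngt1*, *Cnga1* and *Cngb1*, and the NRL motif TGCTGA (on the other strand, TCAGCA) in *Pde6b*. Of all 32851 promoters in that table, 7.06% held the CRX core and 19.5% held the NRL motif. Each sequence is read 5′ to 3′ along the gene.
Gngt1 (chr6:3993758-3994057, plus strand): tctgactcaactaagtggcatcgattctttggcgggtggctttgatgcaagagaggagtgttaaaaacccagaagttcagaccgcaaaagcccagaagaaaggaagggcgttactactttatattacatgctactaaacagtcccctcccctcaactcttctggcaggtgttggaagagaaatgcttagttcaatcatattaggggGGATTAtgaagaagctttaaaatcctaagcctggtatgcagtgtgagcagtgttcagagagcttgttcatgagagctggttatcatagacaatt
Pde6b (chr5:108388123-108388422, plus strand): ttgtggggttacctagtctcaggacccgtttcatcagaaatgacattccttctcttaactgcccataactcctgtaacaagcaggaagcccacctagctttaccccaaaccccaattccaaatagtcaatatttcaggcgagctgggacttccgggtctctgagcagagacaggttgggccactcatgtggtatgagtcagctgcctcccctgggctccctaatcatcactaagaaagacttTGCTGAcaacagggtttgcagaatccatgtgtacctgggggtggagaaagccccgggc
Cngb1 (chr8:95306536-95306835, minus strand): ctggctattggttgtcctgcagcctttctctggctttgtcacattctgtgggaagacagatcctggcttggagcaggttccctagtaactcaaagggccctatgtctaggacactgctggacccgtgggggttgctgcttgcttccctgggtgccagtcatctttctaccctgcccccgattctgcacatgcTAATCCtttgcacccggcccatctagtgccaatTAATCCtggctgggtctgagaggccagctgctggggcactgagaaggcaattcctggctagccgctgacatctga
In *Cngb1* the CRX core appeared at both -58 and -25 from the RefSeq start. It was in *Gngt1* on the other strand at -44, and in *Cnga1*, not printed, at -228. The GENCODE annotation used for gene positions starts *Gngt1* at 3993792 and *Cnga1*, on the minus strand, at 72644275. Both of these matches lie downstream of those starts. The NRL motif of *Pde6b* lay at -8. The promoters of *Gnb1* and *Slc24a1* held neither set of letters, nor the NR2E3 motif AAGTCA.

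All 9 members were downregulated in SCA7 retina, and in each of them every SCA7 library lay below every WT library. A gene was called downregulated at an adjusted p under 0.05 and a fold change (SCA7/WT) under 0.7, by the quasi-likelihood test of edgeR with Benjamini-Hochberg adjustment over 20128 genes. Over all genes tested, 7.91% were downregulated, 7.47% were upregulated (FC above 1.3), and 18.3% had every SCA7 library below every WT library. The median log2 fold change of the members was -1.07, against -0.02 for all genes tested. Levels are given as CPM (counts relative to the size of the library) after scaling of the libraries by TMM.

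The decreases were graded. By log2 fold change, those of *Gnat1* and *Gnb1* were deepest, *Pde6b*, *Pde6g*, *Gngt1* and *Cnga1* followed, and the values of *Pde6a*, *Slc24a1* and *Cngb1* were smallest. Summed over the 9 genes, the cascade took 2.35% to 2.70% of all counts in the WT libraries and 1.08% to 1.29% in the SCA7 libraries. The transducin genes took at most 1.68% in WT and 0.535% to 0.699% in SCA7, with a WT mean of 1.60%, while the PDE6 genes took 0.601% to 0.706% and 0.359% to 0.412%.

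**Figure D1:**
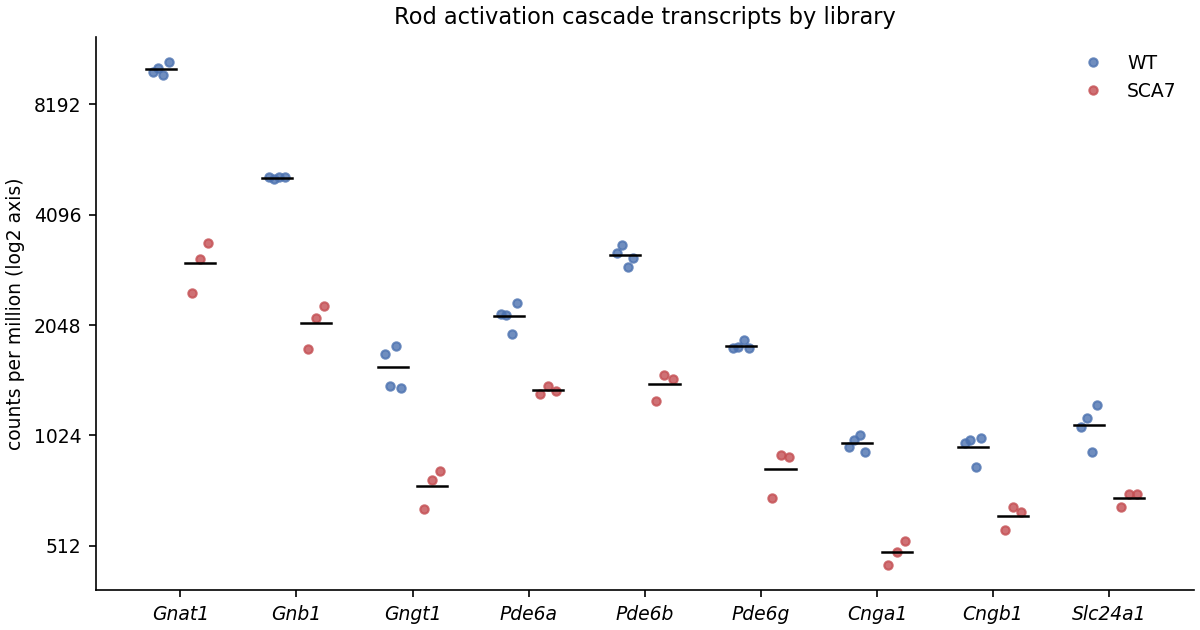
Level of each cascade transcript in each library, in TMM-scaled CPM on a log2 axis, with points for libraries and black bars for group means (4 WT, 3 SCA7). For every gene the SCA7 points lie below the WT points, with the widest gap at *Gnat1*, from a WT mean of 10218 to an SCA7 mean of 3016 CPM.

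*Gnat1*, the alpha subunit of rod transducin that carries the signal to PDE6, stood at 10037, 10280, 9863 and 10693 CPM in the 4 WT libraries and at 2504, 3107 and 3439 CPM in the 3 SCA7 libraries. The groups did not overlap, and the highest SCA7 library remained far below the lowest WT library. The log2 fold change was -1.76 ± 0.11 (SE), with an edgeR adjusted p of 5.1e-07, and the mean level was 29.5% of WT.

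*Gnb1*, which encodes the beta subunit used by rod transducin and by other G proteins outside rods, was the steadiest member in WT, at 5175, 5141, 5177 and 5190 CPM. In SCA7 it was at 1764, 2139 and 2306 CPM, with no overlap and a wider spread. Its log2 fold change was -1.32 ± 0.10 (SE) with an edgeR adjusted p of 1.6e-06. *Gngt1*, the gamma subunit that anchors rod transducin to the disc membrane, stood at 1708, 1396, 1800 and 1382 CPM in WT and at 645, 773 and 821 CPM in SCA7. WT libraries 1 and 3 were above libraries 2 and 4, and the SCA7 libraries were all below them. The log2 fold change was -1.07 ± 0.12 (SE) with an edgeR adjusted p of 4.1e-05.

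Both catalytic subunits of PDE6 were downregulated. *Pde6b*, the beta subunit, was at 3229, 3396, 2953 and 3127 CPM in WT and at 1273, 1501 and 1459 CPM in SCA7. *Pde6a*, the alpha subunit with which it pairs, was at 2199, 2185, 1932 and 2358 CPM in WT and at 1330, 1401 and 1353 CPM in SCA7. The genotypes were separate for both genes. The log2 fold changes were -1.17 ± 0.09 (SE) for *Pde6b*, with an edgeR adjusted p of 1.8e-06, and -0.67 ± 0.08 (SE) for *Pde6a*, with an edgeR adjusted p of 8.5e-05.

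*Pde6g*, the inhibitory subunit that transducin displaces, had 1772, 1779, 1867 and 1770 CPM in WT and 690, 908 and 895 CPM in SCA7. WT library 3 was the highest, and SCA7 library 1 the lowest. The log2 fold change of -1.11 ± 0.10 (SE, edgeR adjusted p = 6.2e-06) was close to that of *Pde6b*.

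*Cnga1*, the subunit that forms the pore of the rod channel together with *Cngb1*, had 955, 995, 1027 and 923 CPM in WT and 454, 493 and 529 CPM in SCA7. *Cngb1* had 978, 997, 838 and 1007 CPM in WT and 566, 654 and 633 CPM in SCA7. The counts of *Cngb1* also take in the soluble glutamic acid-rich proteins made from the same locus, which could not be separated at gene level. The log2 fold changes were -0.99 ± 0.08 (SE, edgeR adjusted p = 2.5e-06) for *Cnga1* and -0.63 ± 0.08 (SE, edgeR adjusted p = 1.9e-04) for *Cngb1*. *Slc24a1*, the exchanger, had 1078, 1140, 925 and 1243 CPM in WT and 655, 710 and 708 CPM in SCA7, with no overlap and a log2 fold change of -0.67 ± 0.10 (SE, edgeR adjusted p = 2.9e-04).

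Within the SCA7 group, library 1 had the lowest value for 9 of the 9 members. Within the WT group, library 3 was lowest for 5 members and highest for 3. The WT libraries also differed in how counts related to transcript length: over the 1928 protein-coding genes that averaged 100 CPM or more, the deviation of a library from the WT mean had a Spearman rho with the length of the longest coding transcript of -0.59 in WT 3 and 0.58 in WT 4, and between -0.01 and 0.12 in the SCA7 libraries. These are descriptions across genes, which are not independent replicates and share the libraries. The members with the shortest coding transcripts, *Pde6g* and *Gngt1*, were highest in WT 3, and the longest, *Cngb1*, *Slc24a1* and *Pde6a*, were lowest there. Members between them in length went both ways. *Gnat1* (2.33 kb) and *Pde6b* (2.80 kb) were lowest in WT 3, and *Cnga1* (2.74 kb) was highest there. A fit with a correction for transcript length and GC content, added after the data were seen, kept all 9 calls. It moved *Gngt1* most, from -1.07 to -0.81, and *Cngb1* from -0.63 to -0.72.

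Other cell types also differed between the groups. All 8 microglia markers and 5 of 6 reactive glia markers rose, with the reactive glia list at 83.4 to 93.5 CPM in WT and 366 to 429 CPM in SCA7 when summed. None of 7 Müller glia markers was called, and 4 of 6 markers of retinal pigment epithelium fell, from 103 to 212 CPM in WT to 19.1 to 46.9 CPM in SCA7 when summed. *Sox9* and *Kcnj10* of the Müller list were called upregulated in 7 and 3 of the alternatives. *Rpe65* and *Ttr* of the pigment epithelium list were not called without SCA7 2 (edgeR adjusted p = 0.0640 and 0.0615). Neither was called at a threshold of 0.01 on the edgeR adjusted p (0.0158 and 0.0162). Of 9 rod markers, 3 of which are also members, 8 were downregulated, and *Samd7*, a rod nuclear protein, was upregulated by 0.71 ± 0.17 on the log2 scale (SE, edgeR adjusted p = 0.0178). The call of *Samd7* was lost without WT 3 (edgeR adjusted p = 0.0787), without SCA7 1 (0.0641) and with no filter beyond 1 count (0.0762). It was also lost with *Xist* as a covariate (0.0806) and at a threshold of 0.01, where the rod marker *Esrrb* was not called either (0.0133). *Xist* was at only 0.06 (WT 4) to 0.30 CPM (WT 3) over the libraries, so this covariate did not adjust for sex. The part of these cell types in the values of the cascade was not tested.

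Between subunits, 6 of 9 ratios within a complex, or between channel and exchanger, had no overlap between the genotypes, but none passed the test after adjustment. Counts of 2 genes were divided within each library, with 0.5 counts added, which removes the scaling of the library. The test was the exact two-sided permutation test over the 35 ways of drawing 3 libraries of 7, for which the smallest p is 0.0286, with adjustment over the 9 ratios. At an unadjusted p of 0.0286, 4 ratios were at that smallest value. Among all 1902225 pairs of the 1951 genes with at least 100 CPM, 52.4% had no overlap, so the share of the members was near the background.

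In transducin, the ratio of *Gnat1* to *Gnb1* was 0.96, 1.00, 0.93 and 1.04 on the log2 scale in WT and 0.50, 0.54 and 0.58 in SCA7. The libraries were tightly grouped and separate, and the mean fell by 0.44 (exact p = 0.0286, adjusted 0.0643), to 0.736 of the WT ratio. The ratio of *Gnat1* to *Gngt1* ran from 2.45 to 2.95 in WT and from 1.96 to 2.07 in SCA7, and fell by 0.70 (exact p = 0.0286, adjusted 0.0643). *Gnb1* to *Gngt1* fell by 0.26 with no overlap (exact p = 0.0857, adjusted 0.110), and by 0.51 with the length and GC correction, which also took *Gnat1* to *Gngt1* to -0.97. In every SCA7 library *Gnat1* was lower relative to both partners than in any WT library, although neither ratio passed adjustment.

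In PDE6, the ratio of *Pde6a* to *Pde6b* was -0.55, -0.64, -0.61 and -0.41 on the log2 scale in WT and 0.06, -0.10 and -0.11 in SCA7. The groups did not overlap, and the difference was 0.50 (exact p = 0.0286, adjusted 0.0643), 1.42 times the WT ratio. *Pde6a* to *Pde6g* was higher by 0.46 (exact p = 0.0286, adjusted 0.0643), again without overlap. *Pde6b* to *Pde6g* overlapped between the genotypes, at 0.66 to 0.93 in WT and 0.71 to 0.88 in SCA7, and differed by -0.05 (exact p = 0.543, adjusted 0.611). None of the 3 PDE6 ratios passed adjustment.

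For the channel, *Cnga1* to *Cngb1* was lower by 0.36 in SCA7 on the log2 scale, from -0.13 to 0.29 in WT to -0.41 to -0.26 in SCA7 (exact p = 0.0571, adjusted 0.103). The ratios of *Cnga1* and *Cngb1* to *Slc24a1* overlapped between the groups (exact p = 0.0857 and 0.629, adjusted 0.110 and 0.629). With the length and GC correction, 6 of the 9 ratios passed (adjusted 0.0429): the transducin ratios, both of those with *Pde6a*, and *Cnga1* to *Cngb1*, whose difference was then -0.21. That count is lost when the two-sided p is taken as double the one-sided p, whose smallest value is 0.0571.

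**Figure D2:**
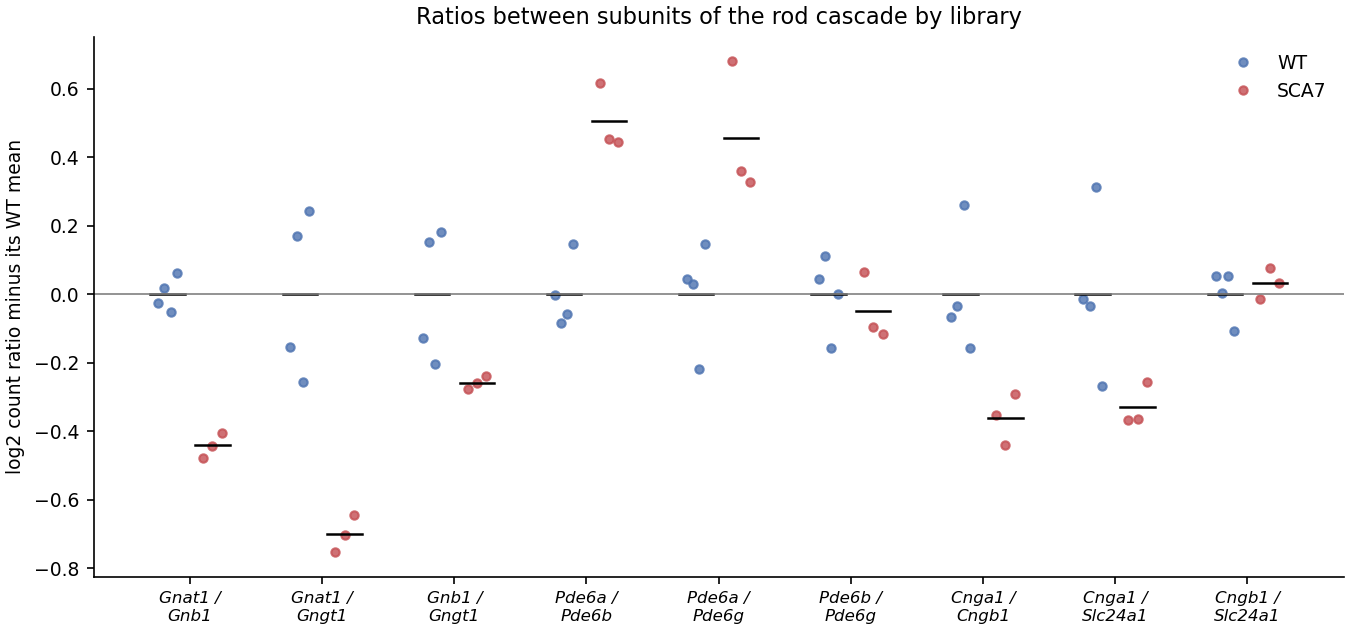
Log2 ratio of the counts of 2 subunits in each library, less the mean of the WT libraries, with points for libraries and black bars for group means (4 WT, 3 SCA7). The SCA7 points lie below the WT points for *Gnat1* to *Gnb1* and above them for *Pde6a* to *Pde6b*, and overlap for *Pde6b* to *Pde6g*.

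For levels compared between genes, the scale was per length, as counts over a size factor and over the median length of the annotated transcripts of a gene in kb (RPK). On that scale *Gnat1* was 2.77 ± 0.096 (SD, n = 4) times *Gnb1* in WT and 2.04 ± 0.051 (SD, n = 3) times in SCA7. *Pde6a* was 0.558 ± 0.041 (SD, n = 4) times *Pde6b* in WT and 0.791 ± 0.054 (SD, n = 3) times in SCA7. The order by mean level in WT was *Gnat1*, *Gnb1*, *Pde6g*, *Pde6b*, *Gngt1*, *Pde6a*, *Cnga1*, *Cngb1* and *Slc24a1*. *Gngt1* exceeded *Pde6a* in 3 of 4 WT libraries and *Cnga1* exceeded *Cngb1* in 3 of 4, so these neighbours did not differ beyond their spread. With this length, *Pde6a* was above *Gngt1* in 2 of 3 SCA7 libraries and *Cngb1* above *Cnga1* in 3 of 3. Neither pair changed places between the genotypes by mean level when the union of exons or the longest coding transcript was used as length. *Pde6a* and *Pde6b* did so with the union of exons. With that length *Pde6b* was above *Pde6a* in 4 of 4 WT libraries, and *Pde6a* above *Pde6b* in 2 of 3 SCA7 libraries.

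These levels depend on the length used. The median transcript of *Gnat1* is 0.754 kb and its longest coding transcript 2.33 kb, and with the latter length *Gnat1* was 2.67 times *Gnb1*, while *Gnat1* to *Gngt1* went from 18.2 to 3.36 in WT. With longest coding transcripts, *Pde6g* ranked 2, *Gnb1* 3 and *Cngb1* 9, below *Slc24a1*, in both genotypes. The change of a ratio between genotypes is the same whichever length is used.

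Rod subunits were next set against the subunits that take the same place in cones. Of the 8 cone counterparts, 6 were downregulated and *Gnb3* was upregulated (background 7.91% and 7.47%). Of 9 ratios of a rod to a cone subunit, 4 had no overlap between the genotypes and none passed adjustment, with those 4 at an unadjusted exact p of 0.0286. The share without overlap was near the 52.4% of gene pairs given above. With the length and GC correction it was 5 of 9, as *Gngt1* to *Gngt2* went from a difference of 0.14 with overlap to 0.36 without. *Gnat1* to *Gnat2*, the alpha subunits of rod and cone transducin, overlapped, with a difference of 0.05 on the log2 scale (exact p = 0.857, adjusted 0.857).

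The beta subunits went apart. *Gnb3*, the beta subunit of cones that is also used by ON bipolar cells, had 272, 252, 281 and 256 CPM in WT and 564, 576 and 518 CPM in SCA7, with a log2 fold change of 1.06 ± 0.07 (SE, edgeR adjusted p = 5.5e-07). Of 9 bipolar cell markers, 2 fell and none rose, and their sum was 884 to 1049 CPM in WT and 781 to 828 CPM in SCA7. The log2 ratio of *Gnb1* to *Gnb3* was 4.21 to 4.35 in WT and 1.65 to 2.15 in SCA7, and fell by 2.39 (exact p = 0.0286, adjusted 0.0643). *Slc24a1* to *Slc24a2*, the exchanger of cones and other neurons, fell by 1.02 (exact p = 0.0286, adjusted 0.0643), while *Slc24a2* was higher by 0.36 ± 0.08 (SE, edgeR adjusted p = 0.00465) without overlap and missed the FC threshold. *Slc24a2* was called upregulated with the replicate block (0.41), without WT 2 (0.38), without WT 4 (0.41) and without SCA7 2 (0.41). *Pde6g* to *Pde6h* was higher by 0.96 and *Pde6a* to *Pde6c* by 0.65 (exact p = 0.0286 and adjusted 0.0643 for each).

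The wider families were counted per length after the results were known, as a description. *Gnb1* made up 79.2% to 80.9% of the RPK of the 5 G beta genes in WT and 57.5% to 64.5% in SCA7, with *Gnb2* and *Gnb3* higher in SCA7. *Gnat1* made up 95.5% to 96.0% of the 7 alpha genes of the Gi/o class in WT and 87.7% to 90.8% in SCA7. *Slc24a1* made up 66.8% to 70.4% of the potassium-dependent exchangers in WT and 55.4% to 59.4% in SCA7. With longest coding transcripts as length, the share of *Gnb1* was 72.9% to 74.7% in WT and 45.7% to 53.3% in SCA7, and that of *Slc24a1* was 84.4% to 86.5% and 78.1% to 80.6%. *Cnga1* kept 98.2% to 98.4% of the channel alpha subunits in WT and 98.2% to 98.3% in SCA7. Of 20 paralogs tested, which excludes the members and cone counterparts, *Gnb2* was upregulated, *Gng13* and *Slc24a4* were downregulated, and 17 were not called. Without WT 3, *Gng13* was not called (-0.43), and *Gnaq* was called upregulated with the replicate block, without WT 4 and without SCA7 2, at 0.38 to 0.39.

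**Figure D3:**
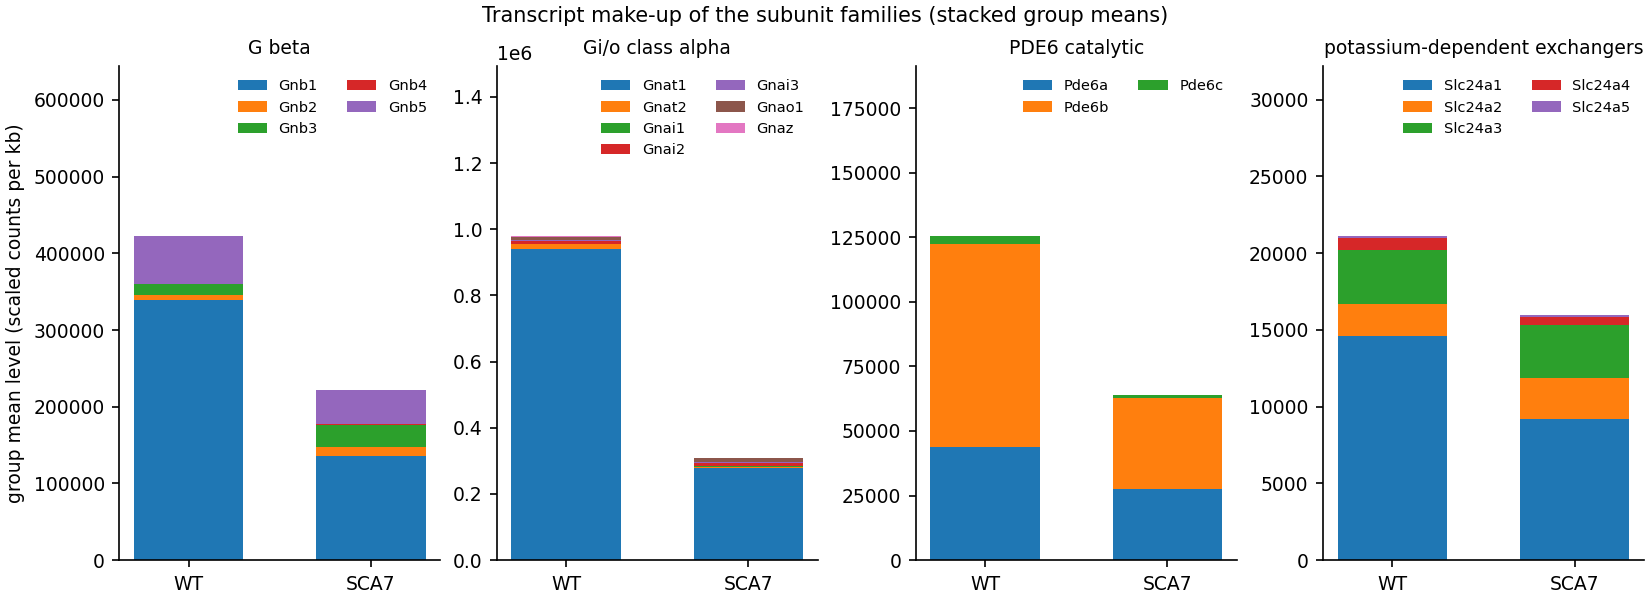
Mean level of each subunit gene in WT and SCA7, in size-factor-scaled counts per kb of median transcript, stacked by family, with no error drawn. The bar of *Gnb1* shrinks while *Gnb3* grows, so the share of *Gnb1* falls from between 79.2% and 80.9% to between 57.5% and 64.5% over libraries, whereas *Gnat1* makes up most of its family in both genotypes.

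To place the cascade against the outer segment, each member was divided by the mean of 10 genes listed for outer segment structure. That mean fell by 0.56 on the log2 scale, with 8 of the genes lower and 2 higher in SCA7. Their fold changes ran from -1.45 for *Prph2* and *Rom1* to 0.02 for *Impg1* and 0.39 for *Impg2*. All 9 members were lower relative to that reference, and a reference without *Impg1* and *Impg2* was not computed. *Gnat1* was lower by 1.21, *Gnb1* by 0.77, *Pde6b* by 0.61, *Pde6g* by 0.56, *Gngt1* by 0.51 and *Cnga1* by 0.43, without overlap (exact p = 0.0286, adjusted 0.0429 for each of the 6). With the length and GC correction, *Gngt1* was lower by 0.24. *Pde6a*, *Slc24a1* and *Cngb1* differed by -0.11, -0.10 and -0.07, and overlapped (exact test, lowest adjusted p = 0.220). With the length and GC correction these differences were -0.13, -0.13 and -0.15, and *Cngb1* no longer overlapped, but none of the 3 passed (exact test, lowest adjusted p = 0.0735). Of all other genes tested, 69.8% did not overlap relative to this reference, so 6 of 9 is near the background. These 6 calls rest on the definition of the two-sided p: with the doubled one-sided p, none passed.

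The outcome also depended on the reference. The alternative was 5 rod marker genes (*Nrl*, *Nr2e3*, *Reep6*, *Esrrb* and *Samd7*), which fell by 0.96 as a mean. Of these, *Samd7* rose by 0.71, while the others had log2 fold changes of -1.87 to -0.86. A reference without *Samd7* was not computed. Against the rod marker genes none of the 9 passed, with 3 at an unadjusted exact p of 0.0286. Without overlap were 5 of the 9, against 82.3% of all other genes. *Gnat1* was lower by 0.81 and *Gnb1* by 0.37, both without overlap, while *Pde6a*, *Slc24a1* and *Cngb1* were higher by 0.29, 0.30 and 0.33. For *Gnb1* the exact p was 0.0571 (adjusted 0.103). *Pde6b*, *Pde6g*, *Gngt1* and *Cnga1* overlapped between the genotypes on this reference, at -0.21, -0.16, -0.11 and -0.03 (exact test, lowest adjusted p = 0.214).

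**Figure D4:**
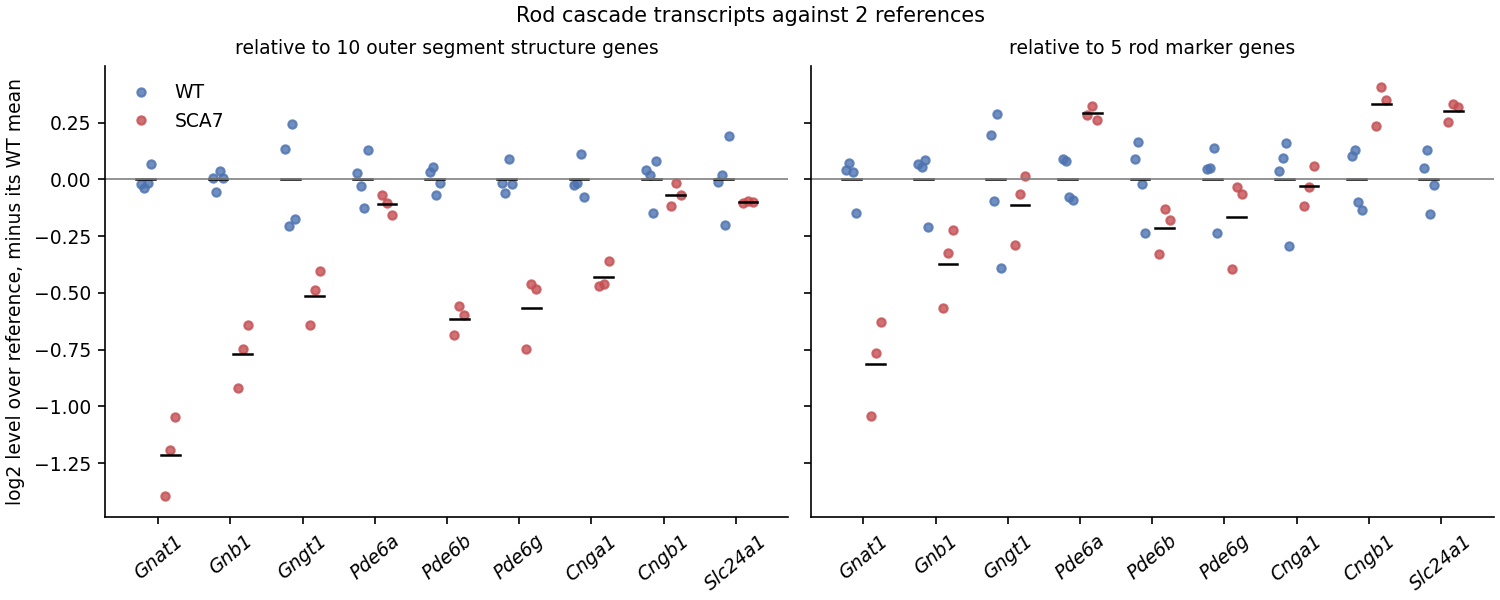
Log2 level of each cascade transcript over the mean of 10 outer segment structure genes (left) or 5 rod marker genes (right), less its WT mean, with points for libraries and black bars for group means (4 WT, 3 SCA7). *Gnat1* is lower in SCA7 on both sides, by 1.21 and 0.81, while *Pde6a*, *Cngb1* and *Slc24a1* overlap with WT on the left and lie above it on the right.

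Among the genes that end the response, 9 of 11 were downregulated and none was upregulated. They included *Sag*, the arrestin of rods, at -1.22, *Guca1b*, a calcium sensor of guanylate cyclase, at -1.65, and *Grk1*, the opsin kinase, at -0.95, all on the log2 scale. *Rgs9*, which speeds the GTPase of transducin, differed by -0.16 ± 0.10 (SE) and was not called. *Gnb5*, its beta partner, differed by -0.51 ± 0.07 (SE) with an FC above 0.7, and was called downregulated without WT 1 (-0.54), without WT 3 (-0.53) and without SCA7 2 (-0.53). Of the 10 outer segment structure genes, 5 were downregulated, with *Prph2* and *Rom1*, the tetraspanins of the disc rim, at -1.45 each, and *Impg2*, a matrix proteoglycan, was upregulated at 0.39, close to the FC threshold. That call of *Impg2* was lost, at values of 0.36 to 0.38, with the replicate block, with the length and GC correction, and without WT 3, WT 4 or SCA7 3.

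**Figure D5:**
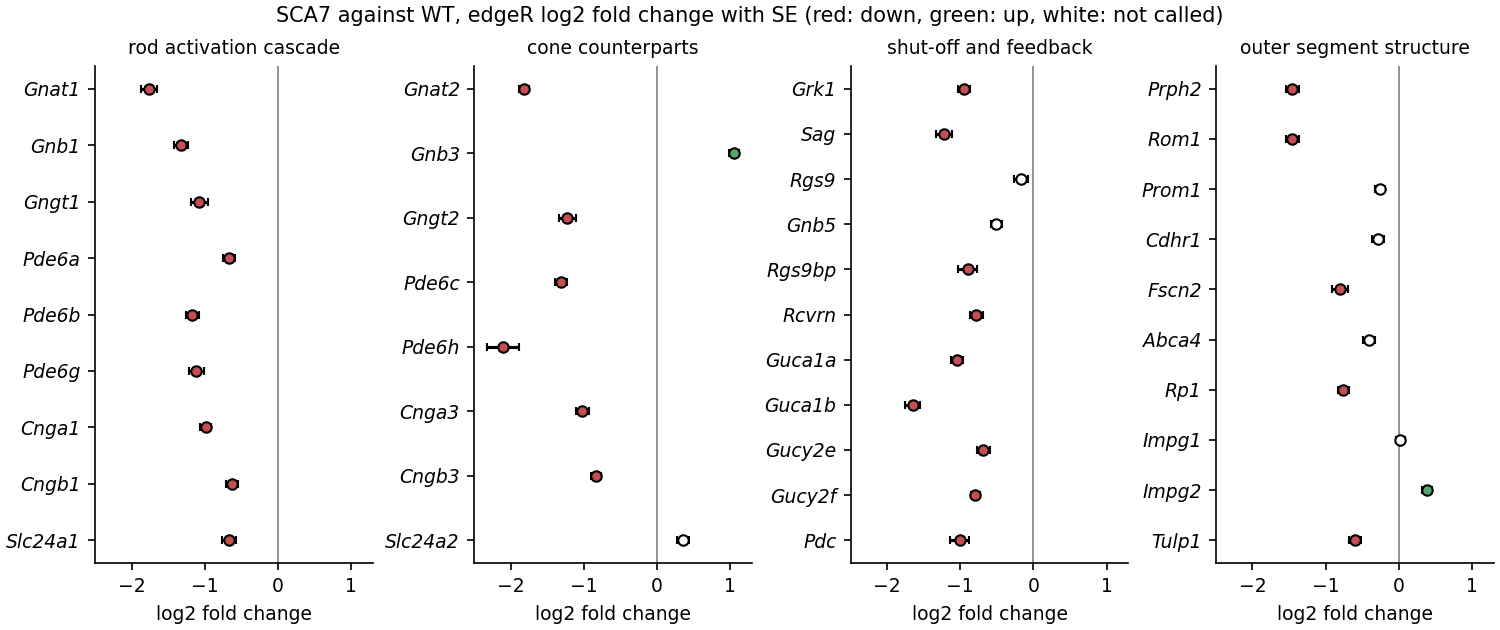
EdgeR log2 fold change (SCA7 against WT) of each gene in 4 lists, with bars for the SE, red for downregulated, green for upregulated and white for not called. The members run from -0.63 to -1.76, and *Gnb3*, at 1.06, stands apart from the other cone counterparts.

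Across the 9 members, log2 fold change ran with mean level, with a Spearman rho of -0.82 (Pearson -0.83, n = 9 genes), and less so with length, at 0.62 (Pearson 0.50). The corresponding Spearman values over 1928 protein-coding genes with at least 100 CPM were -0.12 and 0.06. Genes are not independent replicates, and the level and the fold change come from the same libraries.

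The genes whose pattern over the 7 libraries was most like that of *Gnat1*, by the root mean square distance of log2 CPM centred on WT, were *Rabgef1* (0.0754), *Reep6* (0.112), *Guca1b* (0.119), *Chst3* (0.125) and *Rncr4* (0.127), of 10044 genes that averaged 10 CPM or more. Annotated genes that overlap a member were *Gm13171* within *Gnb1*, *Rps2-ps10* within *Pde6a* and *Gm5297* within *Cnga1*, with 0 to 1, 9 to 31 and 89 to 192 counts per library.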

How the data were processed

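Total RNA from 4 WT and 3 SCA7 retina samples was depleted of ribosomal RNA and made into stranded libraries. The submitters' notes name TopHat2 2.0.14, Bowtie2 2.1.0, HTSeq 0.6.1 and build mm10. The authors deposited raw counts for 52550 genes, and the strand option and counting mode are not given in the sources used here. Totals were 56497675 to 96635832 counts per library. All 9 members and all gene lists were chosen with earlier results of these data known.

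Genes passing filterByExpr (20128) were tested in edgeR 4.0.16 (TMM, robust quasi-likelihood test, no covariates) with Benjamini-Hochberg adjustment. Named genes were the members, the genes of the lists, overlapping genes and the 5 genes most like *Gnat1*. Names, positions and lengths came from a GENCODE annotation of the same assembly, and 52403 genes matched. RPK used DESeq2 size factors. Ratios were tested by an exact permutation test, in which the two-sided p is the share of the 35 regroupings with an absolute difference at least as large. This definition was taken after a first comparison with a library function, which doubles the one-sided p, and before any ratio was computed, so the doubled p is given as an alternative. The alternatives were DESeq2 1.42.0, limma-voom (limma 3.58.1), other filters, scalings and thresholds, a replicate block, *Xist* as a covariate and leaving out each library. The doubled p and the length and GC correction (splines with 5 degrees of freedom) were added later, as were the family shares and the background of gene pairs. The steps were tested on simulated counts. Computations used R 4.3.3 and Python 3.11.15.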

Additional observations from a re-analysis of the deposited data

Results flagged for a closer look

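*Pde6g* in the WT libraries was the single group of values that held a library far from the others, among 36 groups of 4 WT values that were looked at, where chance gives about 1 in 20. WT 3 stood at 1867 CPM and the other WT libraries at 1770 to 1779 CPM, so that 0.902 of the range lay in that gap. All 4 values were above the SCA7 values, and the downregulation of *Pde6g* did not rest on WT 3.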

How the results depend on the processing

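The 9 members stayed downregulated in all 18 alternatives, with the highest adjusted p at 0.00308 (*Slc24a1*, leaving out a library). Without an FC threshold, 2852 genes were down and 2853 up. The 6 members lower than the outer segment genes became 0 with rod marker genes as reference and 0 with the doubled one-sided p, and the number of ratios within complexes that passed went from 0 to 6 with the length and GC correction. The sources of these changes were not tested beyond the construction of each alternative. Same-numbered WT and SCA7 libraries correlated at 0.005, 0.204 and 0.089 in their deviations from the group means, so not every pair deviated together and the libraries were not treated as paired. The labels do not say what a shared replicate number marks. With the replicate block, 1706 genes were down and 1629 up, and all members were still called. With 7 libraries, the exact test of a ratio cannot go below 0.0286, which limits what can be called within a family of 9. Of the values for single genes and ratios under the alternatives, 468 kept their call or stayed within the spread of the replicates and 27 moved further, and no called value changed sign.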
